A study of Mus musculus with 6 samples.

Results

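Dmbt1 and Ccl28 are genes of glandular and mucosal epithelium. They were selected on their log2 values, because these spread widely between the 6 tumour libraries, and were read as the rows of the log2 table that carry the symbols asked for, Dmbt1, Ccl28 and Ccr10. Of these 3 symbols, 2 gave rows, among 770 genes in all, and Ccr10 was not analysed here. Every library, in both groups, came from a primary oral squamous cell carcinoma that the carcinogen 4NQO had induced in mice, and the RNA was taken from formalin-fixed, paraffin-embedded specimens. One group of 3 libraries came from animals treated with agonistic anti-CD40, an antibody that activates the receptor CD40 on antigen-presenting cells, and the other 3 from animals given Vehicle. The sources used here do not give the mouse line, age, dose or time of sampling. The labels do not say whether the 3 libraries of a group came from separate animals, so the errors below measure the spread between these samples.

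Dmbt1 encodes a large secreted scavenger receptor cysteine-rich glycoprotein, also known as salivary agglutinin or gp-340 in human, which binds bacteria in saliva and on mucosal surfaces. Ccl28 encodes a chemokine made by the epithelium of salivary and other exocrine glands and of the colon. CCL28 attracts IgA-secreting plasma cells through the receptor CCR10 and eosinophils through CCR3, and has antimicrobial activity of its own. In the oral cavity, minor salivary glands lie next to the squamous epithelium from which these carcinomas arise.

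The stretch before the annotated start of Ccl28 is shown to place the gene on the genome. Its part in the spread between tumours was not tested. These are the 250 bases upstream of the start on the plus strand of RefSeq build GRCm38.p6, at chr13:119623569-119623818, with capitals marking matches to the motifs searched. Of the 2 members, only Ccl28 was matched in the promoter table.
Ccl28: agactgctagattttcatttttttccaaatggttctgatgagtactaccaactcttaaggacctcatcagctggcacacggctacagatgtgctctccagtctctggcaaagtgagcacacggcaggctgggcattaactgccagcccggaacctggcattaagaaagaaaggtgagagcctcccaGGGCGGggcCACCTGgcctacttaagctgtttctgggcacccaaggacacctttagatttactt
Both strands were searched for 3 motifs. The GC box, GGGCGG, matched once, beginning 64 bases before the start, and is present in 32.7% of 32851 promoter windows of the same length. An E-box of the letters CACCTG matched once, beginning 55 bases before the start, against 17.2% of windows with such a match. The TATA box, TATAAA, is present in 12.4% of windows, and its letters did not occur in this one. The matches do not overlap one another and are a description of the letters only.

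Values are log2 normalized counts as the authors deposited them. Whole counts could be recovered from them, and their total over the 770 genes lay between 333400 and 578598 in each library. A gene was taken as above background where its count exceeded the mean of 8 negative controls plus 2 SD, a limit of 24.7 to 26.6 counts or 5.57 to 6.52 on the log2 scale. Squamous and general epithelial genes were above this limit in every library for all 6 that were measured of 14 listed, with the adhesion gene Cdh1, which encodes E-cadherin, between 11.94 and 12.51.

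Dmbt1 was at 17.23, 15.17 and 13.89 in anti-CD40 libraries 1, 2 and 3, and at 10.06, 16.96 and 13.83 in vehicle libraries 1, 2 and 3. It was above background in 6 of 6 libraries. A high library stood in each group, anti-CD40 1 and vehicle 2, and the lowest value, in vehicle 1, lay far under the other 5, so the groups overlapped. Between anti-CD40 1 and vehicle 1 the normalized level differed by 7.17 on the log2 scale, or 144-fold. In these bulk samples, fewer cells of a type and less RNA per cell cannot be told apart.

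The recovered Dmbt1 counts were 67123, 15082 and 5408 in anti-CD40 libraries 1, 2 and 3, and 578, 38852 and 8466 in vehicle libraries 1, 2 and 3. As a share of all gene counts in a library, Dmbt1 held 13.5% in anti-CD40 1 (95% Wilson interval 13.4% to 13.6%), 3.39% in anti-CD40 2 and 1.62% in anti-CD40 3. Its share in the vehicle libraries was 0.0999% in vehicle 1 (0.0921% to 0.108%), 10.9% in vehicle 2 and 1.73% in vehicle 3. Dmbt1 was thus the most counted gene of anti-CD40 1 and rank 2 of vehicle 2, but rank 178 in vehicle 1. Counts of different genes depend on length and on detection efficiency, so these ranks describe the counts and not transcript numbers. The intervals cover counting error only.

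Ccl28 was at 9.37, 7.66 and 6.83 in anti-CD40 libraries 1, 2 and 3, and at 4.92, 7.99 and 7.28 in vehicle libraries 1, 2 and 3. It was above background in 5 of 6 libraries, with vehicle 1 under the limit of 5.66. Anti-CD40 1 was again the highest library and vehicle 1 the lowest, and the groups overlapped. With vehicle 1 set at its background limit, the normalized level was at least 13.1-fold higher in anti-CD40 1 than in vehicle 1.

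**Figure D1:**
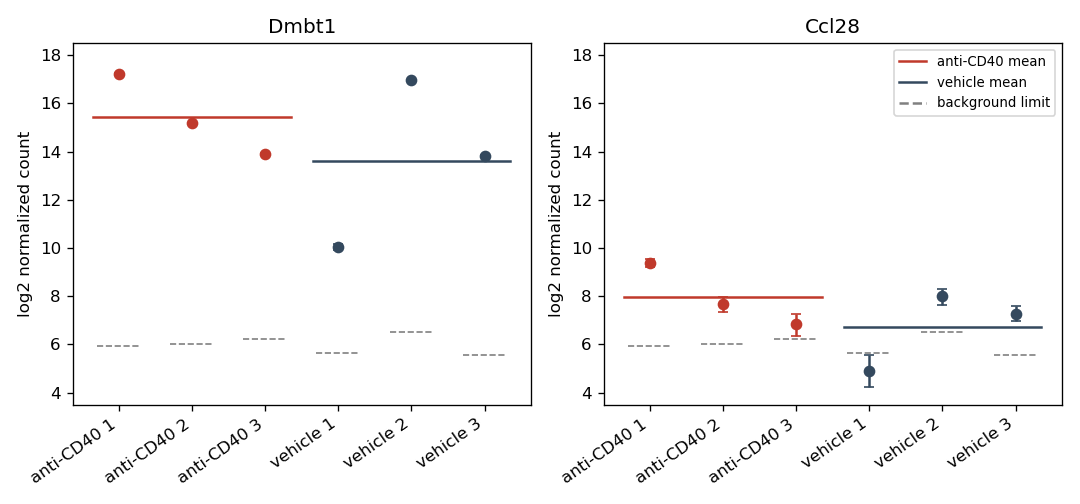
Dmbt1 (left panel) and Ccl28 (right panel) in each library as log2 normalized counts, with points for libraries, bars for 95% Poisson counting intervals (smaller than the point where not visible), solid lines for group means of 3 libraries and dashed lines for each library's background limit. Vehicle 1 is the lowest library for both genes, at 10.06 for Dmbt1 and 4.92 for Ccl28, and only its Ccl28 value lies under the background limit.

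For Ccl28 the depth limits how finely the libraries can be ordered. The recovered counts were 288, 81 and 39 in anti-CD40 libraries 1, 2 and 3, and 14, 76 and 88 in vehicle libraries 1, 2 and 3. Anti-CD40 2, vehicle 2 and vehicle 3 thus had 81, 76 and 88 counts, with overlapping Poisson intervals of 64.3 to 101, 59.9 to 95.1 and 70.6 to 108. Their normalized levels of 7.66, 7.99 and 7.28 run in the opposite order, because the library factors were 2.44, 3.28 and 1.72. When libraries were centred on the positive controls instead, an alternative chosen after seeing the data, anti-CD40 2 was at 7.41, below vehicle 2 at 7.57 and vehicle 3 at 7.73. Anti-CD40 1 stayed highest at 9.52 and vehicle 1 lowest at 5.26.

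For Dmbt1 the counts were high enough that counting error separated most neighbours. Anti-CD40 3 and vehicle 3 differed by 0.057 on the log2 scale, and their counting intervals of 13.85 to 13.92 and 13.80 to 13.86 overlapped. Anti-CD40 1 exceeded vehicle 2 by 0.27, or 1.20-fold, and vehicle 2 exceeded anti-CD40 2 by 1.79, or 3.46-fold. The widest step in the order was that of 3.77, or 13.7-fold, between vehicle 3 and vehicle 1.

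The same library, anti-CD40 1, was highest for both genes and vehicle 1 was lowest, on the deposited scale and after centring on the positive controls. On the deposited scale vehicle 2 and anti-CD40 2 came next for both, but for Ccl28 their places relative to vehicle 3 were not resolved by the counts and turned with the scaling. Over the 5 libraries without vehicle 1, in which both genes were above background, the range was 3.40 for Dmbt1 and 2.54 for Ccl28. Around each gene's own mean, Dmbt1 was at 2.71 and Ccl28 at 2.03 in anti-CD40 1. In vehicle 2 the same deviations were 2.44 for Dmbt1 and 0.65 for Ccl28, and in vehicle 1 they were -4.46 and -2.42, the last from a value under the background limit.

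The spread between libraries chose these genes and is given as a description only. Over the 6 libraries, Dmbt1 had an SD of 2.63, rank 2 of 770 genes, just below Camp (3.14) and just above Cfd (2.56). Ccl28 had an SD of 1.47, rank 11, between Cxcl10 (1.47) and Spp1 (1.44). The median SD of all genes was 0.38 and the 95th percentile 0.89. Dmbt1 also had the mean level of rank 3 among all genes, whereas the other genes of widest spread lay at lower levels. Pooled within the groups, the SD was 2.72 for Dmbt1 and 1.46 for Ccl28, at rank 2 and rank 12. Vehicle 1 carried much of the spread: without it the SD was 1.63 for Dmbt1 (rank 7) and 0.97 for Ccl28 (rank 32). Without anti-CD40 1 it was 2.54 for Dmbt1 (rank 2) and 1.21 for Ccl28 (rank 19).

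**Figure D2:**
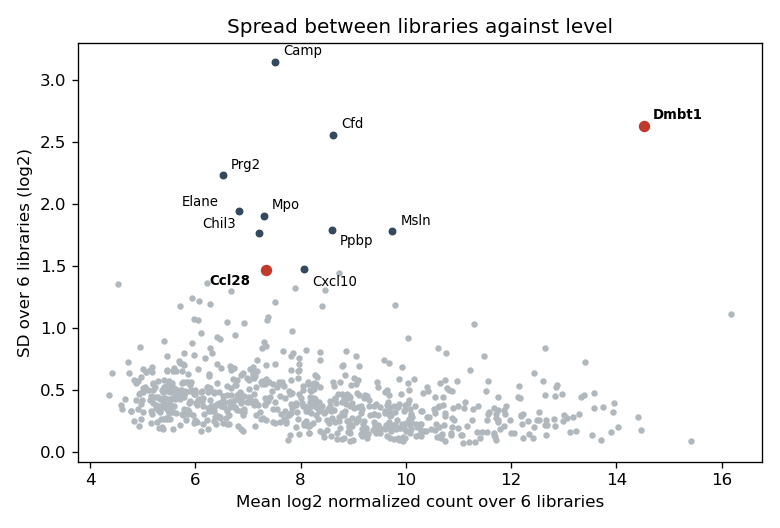
SD over the 6 libraries (log2, vertical axis) against mean log2 normalized count (horizontal axis) for 770 genes, each a point. Dmbt1 and Ccl28 are in red and the other 9 of the 11 genes with the highest SD in dark blue. Dmbt1 combines an SD of 2.63 with a mean of 14.52, while Ccl28 has an SD of 1.47 at a mean of 7.34.

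The comparison of the groups asked whether tumours treated with agonistic anti-CD40 differed from those given vehicle. Dmbt1 averaged 15.43 ± 1.69 in anti-CD40 tumours and 13.62 ± 3.46 in vehicle tumours (SD, n = 3 each), a difference of 1.81 (SE 1.65, 95% confidence interval -2.04 to 5.67). Ccl28 averaged 7.95 ± 1.30 in anti-CD40 tumours and 6.73 ± 1.61 in vehicle tumours (SD, n = 3 each), a difference of 1.22 (SE 0.90, interval -0.88 to 3.33). Both differences were within the spread between libraries, and since the members were chosen by that spread, these values are a description. With limma across all genes and Benjamini-Hochberg adjustment, 0 of the 2 members were called, each with an adjusted p of 0.974, and 0% of the 770 genes were called. For all genes, limma gave 25 unadjusted p-values under 0.05 (3.25%), and limma-voom on the recovered counts also called 0 genes. Groups without overlap were found for neither member, against 10.3% of all genes.

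Single libraries decided the size of these differences. Without vehicle 1 the difference was 0.033 for Dmbt1 and 0.32 for Ccl28. Without anti-CD40 1 it was 0.91 for Dmbt1 and 0.51 for Ccl28, whereas without vehicle 2 it was 3.48 for Dmbt1 and 1.85 for Ccl28. The Dmbt1 interval without vehicle 2 ran from 0.36 to 6.61, with an adjusted p of 0.764 by limma. Subtracting the negative control mean moved the Ccl28 difference to 2.42 (interval -2.42 to 7.26), since vehicle 1 fell to the floor of 1 count, and left that of Dmbt1 at 1.83.

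**Figure D3:**
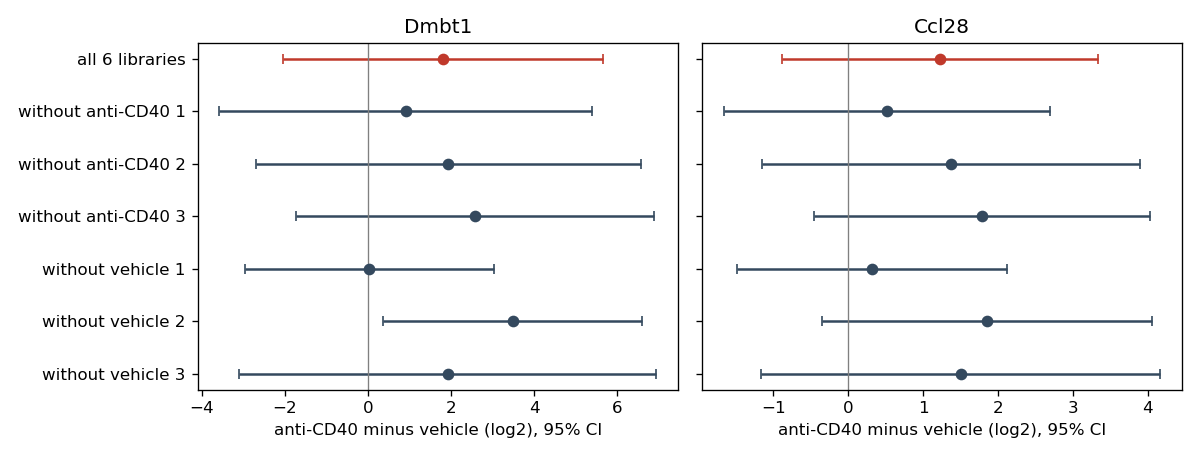
Difference between the group means (anti-CD40 minus vehicle, log2, horizontal axis) with 95% confidence intervals from limma, for all 6 libraries (red) and with each library left out in turn (dark blue), for Dmbt1 (left panel) and Ccl28 (right panel). The Dmbt1 difference lies at 0.033 without vehicle 1 and at 3.48 without vehicle 2.

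Genes with the most similar profile were found by the root mean square difference of mean-centred log2 values over the 6 libraries, among genes above background in at least 3 libraries. Nearest to Dmbt1 was Msln, which encodes the cell surface glycoprotein mesothelin, at 0.86, where the median over the 617 genes compared was 2.43. A gene at the same level in every library would lie at 2.40 from Dmbt1, so this median is near that of a flat gene. Msln was at 11.69, 9.96 and 9.05 in anti-CD40 libraries 1, 2 and 3, and at 7.13, 11.73 and 8.86 in vehicle libraries 1, 2 and 3. It thus shared with Dmbt1 the highest pair of libraries and the low vehicle 1. Next came Cfd, which encodes the alternative complement pathway protease factor D, also called adipsin, at 0.86. Cfd was at 11.76, 9.99 and 6.83 in anti-CD40 libraries 1, 2 and 3, and at 5.37, 10.74 and 7.003 in vehicle libraries 1, 2 and 3. Prg2, which encodes eosinophil major basic protein, followed at 1.18, Ccl28 itself at 1.18 and the myeloid granule enzyme gene Mpo at 1.26. Cfd was above background in 5 of 6 libraries, Mpo in 4 and Prg2 in 3. For Prg2 these were anti-CD40 1, anti-CD40 2 and vehicle 2, the highest libraries of Dmbt1, so it passed the filter through these alone. Mpo was above background in the same libraries and barely in vehicle 3, at 5.57 beside a limit of 5.567.

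Nearest to Ccl28 was also Msln, at 0.65, where the median over the genes compared was 1.40 and a flat gene would lie at 1.34. Ltf, which encodes lactoferrin, an iron-binding protein of exocrine secretions and neutrophil granules, followed at 0.67. Ltf was at 7.30, 6.74 and 6.05 in anti-CD40 libraries 1, 2 and 3, and at 5.004, 7.45 and 5.94 in vehicle libraries 1, 2 and 3, above background in 4 of 6. Isg20, an interferon-induced exonuclease gene, came at 0.67, Mfge8, which encodes a milk fat globule protein, at 0.91 and S100b, a calcium-binding protein gene of glia, at 0.94. Isg20 was at 11.19, 10.36 and 9.23 in anti-CD40 libraries 1, 2 and 3, and at 8.92, 10.93 and 9.67 in vehicle libraries 1, 2 and 3. Dmbt1 was not among the 5 nearest to Ccl28. All these profiles share the same 6 libraries and the same scaling, so likeness is a description.

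**Figure D4:**
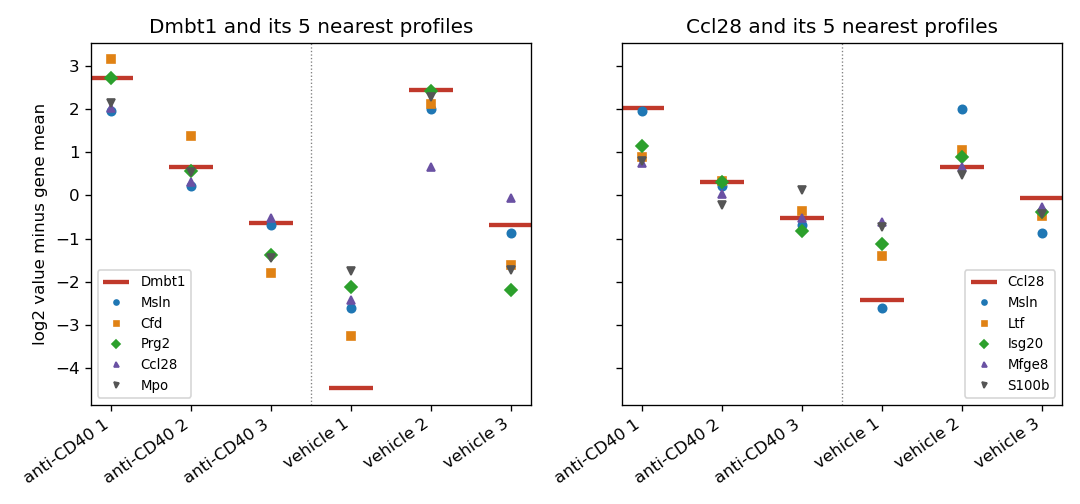
Log2 values minus each gene's mean (vertical axis) in the 6 libraries for Dmbt1 and Ccl28 (red bars) and for the 5 genes of nearest profile to each (symbols). Msln, nearest to both, is highest in anti-CD40 1 and vehicle 2 and lowest in vehicle 1, and Dmbt1 has the lowest centred value of the left panel, -4.46 in vehicle 1.

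Of 7 measured granule genes of immature myeloid cells, 6 had the same 3 highest libraries as Dmbt1, anti-CD40 1, anti-CD40 2 and vehicle 2, and 5 of the 6 were above background in all 3. The exceptions were Lcn2, whose second highest library was vehicle 1, and Ctsg, which was under the limit in anti-CD40 2. The 3 libraries were taken from the Dmbt1 values, and the share of all genes that rank them highest was not counted. The 6 of 7 is therefore a description of this list only. Camp, which encodes cathelicidin, was at 11.17, 8.87 and 5.14 in anti-CD40 libraries 1, 2 and 3, and at 4.27, 10.81 and 4.84 in vehicle libraries 1, 2 and 3. It was above background only in anti-CD40 1, anti-CD40 2 and vehicle 2. The mean log2 value of the 7 genes, from a list of 9, was 9.14, 7.72 and 5.90 in the anti-CD40 libraries and 5.68, 9.01 and 5.47 in the vehicle libraries. Of the 7 genes only Lcn2 was above background in every library. The low means of anti-CD40 3, vehicle 1 and vehicle 3 thus rest mostly on values under the limit. The B cell list, of which 9 of 9 genes were measured and 4 were at or under background in every library, averaged 6.05, 6.11 and 5.17 in the anti-CD40 libraries and 5.21, 6.75 and 5.04 in the vehicle libraries. The part of these cells in the member values was not tested.

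The other measured genes of the CCL28 axis, 2 in number, spread less than Ccl28, which was chosen for its wide spread. Ccl27a, which encodes the skin chemokine that shares the receptor CCR10 with CCL28, was at 7.55, 7.01 and 6.996 in anti-CD40 libraries 1, 2 and 3, and at 7.31, 7.65 and 6.86 in vehicle libraries 1, 2 and 3. Its SD was 0.33, and its difference was -0.09 (SE 0.29). Ccr3, the eosinophil receptor gene, was at 5.59, 6.53 and 5.35 in anti-CD40 libraries 1, 2 and 3, and at 5.60, 6.73 and 4.92 in vehicle libraries 1, 2 and 3. It was above background in 2 of 6 libraries, so most of these values only bound its level.

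Among 10 measured genes of 12 listed for epithelial and mucosal homing chemokines and receptors, 4 were higher and 6 lower in the mean, and 0 passed the test in either direction. Their median difference was -0.20, beside 0.04 over all genes. Leaving out anti-CD40 1 gave a median of -0.07 with 5 higher and 5 lower, leaving out anti-CD40 3 gave -0.0996, and leaving out anti-CD40 2 gave -0.30. After centring on the positive controls the median was -0.44, beside -0.205 over all genes, with 2 higher and 8 lower. Cxcl14, an epithelial chemokine gene, was at 10.30 ± 0.16 in anti-CD40 tumours and 9.84 ± 0.36 in vehicle tumours (SD, n = 3 each). Cxcl16, which encodes the ligand of CXCR6, was at 9.40 ± 0.57 in anti-CD40 tumours and 9.83 ± 0.35 in vehicle tumours. The fractalkine receptor gene Cx3cr1 was at 8.02 ± 0.50 in anti-CD40 tumours and 8.36 ± 0.22 in vehicle tumours. Apart from Ccl28, the 9 other genes had a median SD over libraries of 0.39.

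IgA plasma cells, the cells that CCL28 attracts, are followed by few genes on this panel. The listed genes Igha and Jchain were not measured, so the values below are not a readout of IgA plasma cells as such. Of 14 listed plasma cell and IgA genes 9 were measured, of which 2, Tnfrsf17 and Tnfrsf13c, were at or under background in every library. In the mean 6 were higher and 3 lower, 0 passed the test, and the median difference was 0.12. Without vehicle 3 these counts were 3 higher and 6 lower, with a median of -0.0175, beside -0.09 over all genes. Without vehicle 2 the median was 0.495, beside 0.11 over all genes. After centring on the positive controls 4 were higher and 5 lower, with a median of -0.12, beside -0.205 over all genes. Xbp1, a transcription factor gene of secretory cells including plasma cells and gland cells, was at 12.25, 11.63 and 11.62 in anti-CD40 libraries 1, 2 and 3, and at 11.45, 11.87 and 11.23 in vehicle libraries 1, 2 and 3. Its SD of 0.35 was close to the median of all genes. Prdm1, which encodes the plasma cell regulator Blimp-1, was at 9.08 ± 0.13 in anti-CD40 tumours and 9.01 ± 0.35 in vehicle tumours. Slamf7, a surface receptor gene of plasma cells and other lymphocytes, was at 6.53 ± 0.41 in anti-CD40 tumours and 7.28 ± 0.64 in vehicle tumours, and Cd38 at 9.04 ± 0.13 in anti-CD40 tumours and 8.46 ± 0.73 in vehicle tumours.

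The gland label could be checked only in part, since 7 of 25 listed genes of glandular and secretory epithelium were measured and both members are among the 7. In the mean 7 were higher in anti-CD40 tumours and 0 lower, 0 passed the test, and the median difference was 0.57, beside 0.04 over all genes. Of all 770 genes, 420 were higher in the mean. Such directions do not show whether gland genes followed the members from library to library. The 5 genes other than the members were all higher in the mean, with a median difference of 0.34 and Muc1 at 0.0065. Of these genes, Ltf and Lcn2 were also on the list of immature myeloid granule genes. Kit was also on a list for eosinophils and mast cells, so these genes do not mark gland cells alone. The count over the gland list was 6 of 7 after centring on the library median or quantile normalization, where Muc1 turned. It was 5 of 7 after centring on positive controls. It was also 5 of 7 without vehicle 3, with a median of 0.16, beside -0.09 over all genes. The median was 0.96 without vehicle 2 and 0.89 without anti-CD40 3, beside 0.11 and 0.07 over all genes. Clu, which encodes the secreted chaperone clusterin, was at 12.54, 11.46 and 11.79 in anti-CD40 libraries 1, 2 and 3, and at 11.79, 11.74 and 11.22 in vehicle libraries 1, 2 and 3. Lcn2, which encodes the siderophore-binding protein lipocalin 2, was at 10.88, 10.55 and 9.05 in anti-CD40 libraries 1, 2 and 3, and at 10.62, 9.84 and 7.79 in vehicle libraries 1, 2 and 3. The receptor gene Kit was at 7.72, 7.24 and 7.33 in anti-CD40 libraries 1, 2 and 3, and at 6.99, 7.56 and 7.22 in vehicle libraries 1, 2 and 3. As for both members, anti-CD40 1 was highest for Kit and vehicle 1 lowest, over a range of 0.72. Vehicle 1 was instead among the higher libraries for Lcn2 and the highest for Muc1, at 8.27.

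Genes with roles near that of Dmbt1 mostly spread less than Dmbt1, with the exception of Camp. Since Dmbt1 was chosen for its wide spread, this difference in spread is a description only. Of 28 listed soluble and epithelial pattern recognition and antimicrobial genes, 14 were measured, 11 higher and 3 lower in the mean, with 0 passing the test and a median difference of 0.49. Leaving out vehicle 3 gave a median of 0.19, leaving out anti-CD40 1 gave 0.32, and centring on the positive controls gave 0.245. Over all genes the medians in these settings were -0.09, 0.04 and -0.205. The 13 other than Dmbt1 had a median SD over libraries of 0.54. S100a8, which encodes a calprotectin subunit, was at 16.43, 17.18 and 14.77 in anti-CD40 libraries 1, 2 and 3, and at 16.75, 17.12 and 14.79 in vehicle libraries 1, 2 and 3. It was thus high in vehicle 1, the low library of Dmbt1. The lysozyme gene Lyz2 was at 13.45 ± 0.10 in anti-CD40 tumours and 13.19 ± 0.66 in vehicle tumours. Of 9 listed genes of the scavenger receptor cysteine-rich family 7 were measured, 5 higher and 2 lower, with 0 passing the test and a median difference of 0.55 that was 0.31 after centring on the positive controls. Among them, the macrophage receptor genes Cd163 and Msr1 were at 8.57 ± 0.37 and 6.82 ± 0.37 in anti-CD40 tumours and at 7.90 ± 0.50 and 6.40 ± 0.66 in vehicle tumours. Cd5 went the other way, at 7.78 ± 0.21 in anti-CD40 tumours and 8.61 ± 0.20 in vehicle tumours. The Cd5 difference was -0.83 (SE 0.23), with an adjusted p of 0.974 by limma. The 6 family members other than Dmbt1 had a median SD over libraries of 0.51.

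Squamous and general epithelial genes ranged less than the members, which were chosen for their wide spread. In the mean 1 of the 6 measured was higher and 5 lower in anti-CD40 tumours, 0 passed the test, and the median difference was -0.37. Without vehicle 3 the median was -0.20, beside -0.09 over all genes. After centring on the positive controls the median was -0.615, beside -0.205 over all genes, and 6 were lower. Epcam, which encodes an adhesion molecule of simple and glandular epithelium, was at 11.34, 11.02 and 10.38 in anti-CD40 libraries 1, 2 and 3, and at 10.16, 11.52 and 11.40 in vehicle libraries 1, 2 and 3. Vehicle 1 was the lowest library for Epcam as for both members, over a range of 1.36. The basal integrin gene Itga6 was instead lowest in anti-CD40 1, at 11.66, and highest in vehicle 3, at 13.38.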

How the data were processed

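Per the labels' protocols, RNA came from formalin-fixed tumour specimens and was extracted with a miRNeasy FFPE kit. The authors deposited log2 normalized counts in 1 table of 784 rows, of which 770 are genes, 8 negative controls and 6 positive controls. The sources used here name no platform, normalization or filter. On the linear scale each deposited log2 value equalled 4.55 plus a whole count multiplied by a factor of its library, and this held within 0.05 of a count for 4704 of 4704 values. Factors lay between 1.72 and 3.28, and background had not been subtracted. The offset understates differences of genes with few counts.

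The members and gene lists were chosen with earlier results of these data known. Named genes were the members, the 5 nearest profiles of each, all measured genes of the CCL28 axis and up to 4 genes per other list by highest mean level. Genes next to the members in rank of SD were named too. Groups were compared with limma 3.58.1 (lmFit, eBayes) in R 4.3.3 on all 770 genes, two-sided, with 4 residual and 3.37 prior degrees of freedom and an adjusted threshold of 0.05, after a test on simulated data. Python 3.11.15, pandas 2.3.3 and scipy 1.17.1 gave counts, intervals and profiles. Replicate numbers were not treated as pairs. Sequence came from RefSeq tables of GRCm38.p6, whose build the expression table does not name. Alternatives covered scaling, background, a filter on low genes, limma-voom, the variance model, a replicate block and leaving out each library.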

Additional observations from a re-analysis of the deposited data

How the results depend on the processing

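The differences of Dmbt1 and Ccl28 kept a positive sign and stayed uncalled under every alternative run. Across the scaling, filter, background, voom and variance alternatives, the difference ran from 1.57 (positive controls) to 1.93 (quantile) for Dmbt1 and from 0.98 (positive controls) to 2.42 (background subtracted) for Ccl28. With 1 library left out, it ran from 0.033 to 3.48 for Dmbt1 and from 0.32 to 1.85 for Ccl28. Centring on the positive controls, chosen after seeing the data, moved the median difference of all genes to -0.205, where it was 0.04 before. Limma called 0 genes in each of these fits, and the lowest adjusted p of a fit lay between 0.208 (without anti-CD40 2) and 0.997 (without anti-CD40 1). With the replicate block the differences were 1.81 and 1.22 with 0 genes called. Same-numbered libraries correlated over genes at -0.43, 0.069 and 0.28 in their deviations from the group means. With so few libraries these values cannot show whether the numbers mark pairs, and the labels do not say. No alternative was run for Ccr10. Depth limits Ccl28, with 14 to 288 counts per library, more than Dmbt1, with 578 to 67123.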

Other observations

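Muc1, which encodes a transmembrane mucin of secretory epithelium, was chosen after its values were seen. It was at 6.19, 6.37 and 8.23 in anti-CD40 libraries 1, 2 and 3, and at 8.27, 6.49 and 6.02 in vehicle libraries 1, 2 and 3. Its 2 highest libraries, anti-CD40 3 and vehicle 1, were the fifth and the lowest for Ccl28. Pou2af1, a B cell coactivator gene also chosen after its values were seen, was at 6.40, 6.98 and 5.25 in anti-CD40 libraries 1, 2 and 3, and at 4.83, 7.61 and 4.55 in vehicle libraries 1, 2 and 3. It was above background in anti-CD40 1, anti-CD40 2 and vehicle 2.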
